A study of Mus musculus with 26 samples.

Results

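The DP-restricted probes are the 200 of 46237 Illumina array probes whose signal was highest in mouse CD4+CD8+ (DP) thymocytes relative to every earlier thymocyte stage. Each probe's score was its mean log2 signal in DP thymocytes minus the highest of the means of the 6 other stages, after quantile normalisation of 15 thymocyte arrays, and the 200 probes with the highest score are the members. The scores ran from 3.63, a 12.4-fold difference, to 1.36, a 2.57-fold difference, with a median of 1.67. These stage values chose the members, so they are given as a description and carry no test.

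The study profiled thymocytes and T cell acute lymphoblastic leukaemias (T-ALL) of mice on Illumina bead arrays. The leukaemias were 3 Rag-deficient T-ALL on a C57BL/6 background and 7 Rag-proficient T-ALL from F1(WB x B6/Ly5.1) mice, so strain and Rag status cannot be told apart. The thymocytes were C57BL/6 and were defined by surface markers as ETP (lineage-CD44+CD25-Kit+, 2 arrays), TN2 (CD44+CD25+, 1 array used), TN3a (CD44-CD25+CD28-, 3 arrays), TN3b (CD44-CD25+CD28+, 2 arrays), TN4 (CD44-CD25-CD28+, 3 arrays), ISP (CD4-CD8+CD24+TCRbeta-, 2 arrays) and DP (2 arrays). A further TN2 array, replicate 2, was left out by the rule and is described separately. Samples were taken from cell suspensions or sorted, without a statement of which was done for which sample. The labels do not say which Rag gene was altered, and they do not link arrays to animals. A p-value therefore measures only the spread between arrays, which may be technical.

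Thymocytes pass from the CD4-CD8- (TN) stages through the proliferating CD8+ ISP stage to the DP stage. There they leave the cell cycle, express the RAG recombinase again to rearrange the TCR alpha genes, and test the resulting receptor in positive and negative selection. E proteins, RUNX and ETS family factors are known regulators of genes at this stage. T-ALL is a malignancy of immature T cells whose tumours can carry the surface phenotype of different thymic stages.

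A gene could be given to 144 members, which represent 123 genes, and 56 members had no gene in the probe table and are called by probe number. There were 18 genes with at least 2 member probes, and Klf7, Nfatc3 and Adgre5 had 3 each. For 94 of the 123 genes, RefSeq promoter sequences (GRCm38.p6) gave 138 promoters of 250 bases before the transcription start. The sequences of the 5 members on the pathway lists that have a single annotated promoter and are not on an excluded chromosome are shown, since these genes shared their DP peak. They lie at chr6:115995006-115995255 on the minus strand for Plxnd1, chr19:34290409-34290658 on the plus strand for Fas, chr16:95702157-95702406 on the plus strand for Ets2, chr1:171766882-171767131 on the plus strand for Slamf1 and chr2:101649533-101649782 on the minus strand for Rag1. Each is written 5′ to 3′ along the gene and ends at the base before the start. Capitals mark matches, on either strand, to CAGNTG (an E-box of E proteins), TGTGGT (a RUNX motif) and CGGAAG (an ETS motif).
Plxnd1: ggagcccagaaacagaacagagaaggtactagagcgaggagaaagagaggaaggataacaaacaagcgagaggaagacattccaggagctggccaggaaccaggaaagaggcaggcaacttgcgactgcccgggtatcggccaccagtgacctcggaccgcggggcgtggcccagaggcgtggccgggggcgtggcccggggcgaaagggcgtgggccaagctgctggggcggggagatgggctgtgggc
Fas: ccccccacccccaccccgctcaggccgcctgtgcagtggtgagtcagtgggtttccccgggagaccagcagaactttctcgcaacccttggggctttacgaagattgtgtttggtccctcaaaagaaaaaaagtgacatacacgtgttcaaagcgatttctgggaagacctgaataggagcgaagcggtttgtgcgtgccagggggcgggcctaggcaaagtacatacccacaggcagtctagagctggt
Ets2: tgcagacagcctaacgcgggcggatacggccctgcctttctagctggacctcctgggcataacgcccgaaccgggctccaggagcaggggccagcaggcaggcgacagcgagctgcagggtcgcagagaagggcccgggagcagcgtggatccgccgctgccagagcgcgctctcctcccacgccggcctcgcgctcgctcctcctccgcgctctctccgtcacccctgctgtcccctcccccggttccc
Slamf1: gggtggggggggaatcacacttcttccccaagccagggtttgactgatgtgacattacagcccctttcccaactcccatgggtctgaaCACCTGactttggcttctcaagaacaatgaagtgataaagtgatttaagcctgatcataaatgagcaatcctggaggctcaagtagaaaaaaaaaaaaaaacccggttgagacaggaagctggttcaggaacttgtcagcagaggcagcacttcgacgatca
Rag1: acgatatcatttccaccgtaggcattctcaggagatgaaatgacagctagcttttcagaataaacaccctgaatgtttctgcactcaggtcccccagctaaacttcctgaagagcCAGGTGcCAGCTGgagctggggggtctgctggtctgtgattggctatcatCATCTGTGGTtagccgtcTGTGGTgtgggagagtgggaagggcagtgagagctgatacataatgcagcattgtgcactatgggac
The Rag1 promoter held 3 E-box matches and 2 RUNX matches, of which an E-box and a RUNX match overlap in one run of capitals. Slamf1 held 1 E-box, while the Plxnd1, Fas and Ets2 stretches held none of the letters searched. Among all 138 member promoters, 34.8% held an E-box, against 44.8% of 32851 promoters in the RefSeq table. The RUNX motif was in 8.0%, against 14.0% of all, and the ETS motif in 13.8%, against 13.6% of all. Member promoters had a median GC content of 59.2%, against 52.4% over all promoters, and these shares are not adjusted for it.

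Every member was detected on both DP arrays (detection p under 0.01), as were 31.26% of all probes. On the other 13 arrays, 132 members were detected on all and 3 on none. The 3 were a probe of Slc7a11 (ILMN_2574165), a probe of the splicing regulator Esrp2 and the unnamed probe ILMN_1222748, whose scores are therefore lower bounds. Both DP arrays lay above every other array for 197 members, and for 5.65% of all probes, a count that the rule itself largely fixes. The exceptions were Spo11, Rai1 and Mier1. The median DP mean of the members was 10.36, against 7.38 in ETP, 7.26 in TN2, 8.07 in TN3a, 7.60 in TN3b, 8.05 in TN4 and 8.26 in ISP, on a log2 scale where the median of all probes was 6.61 to 6.62 in every stage. These signals include the array background, so a log2 difference of a dim probe understates its change.

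**Figure D1:**
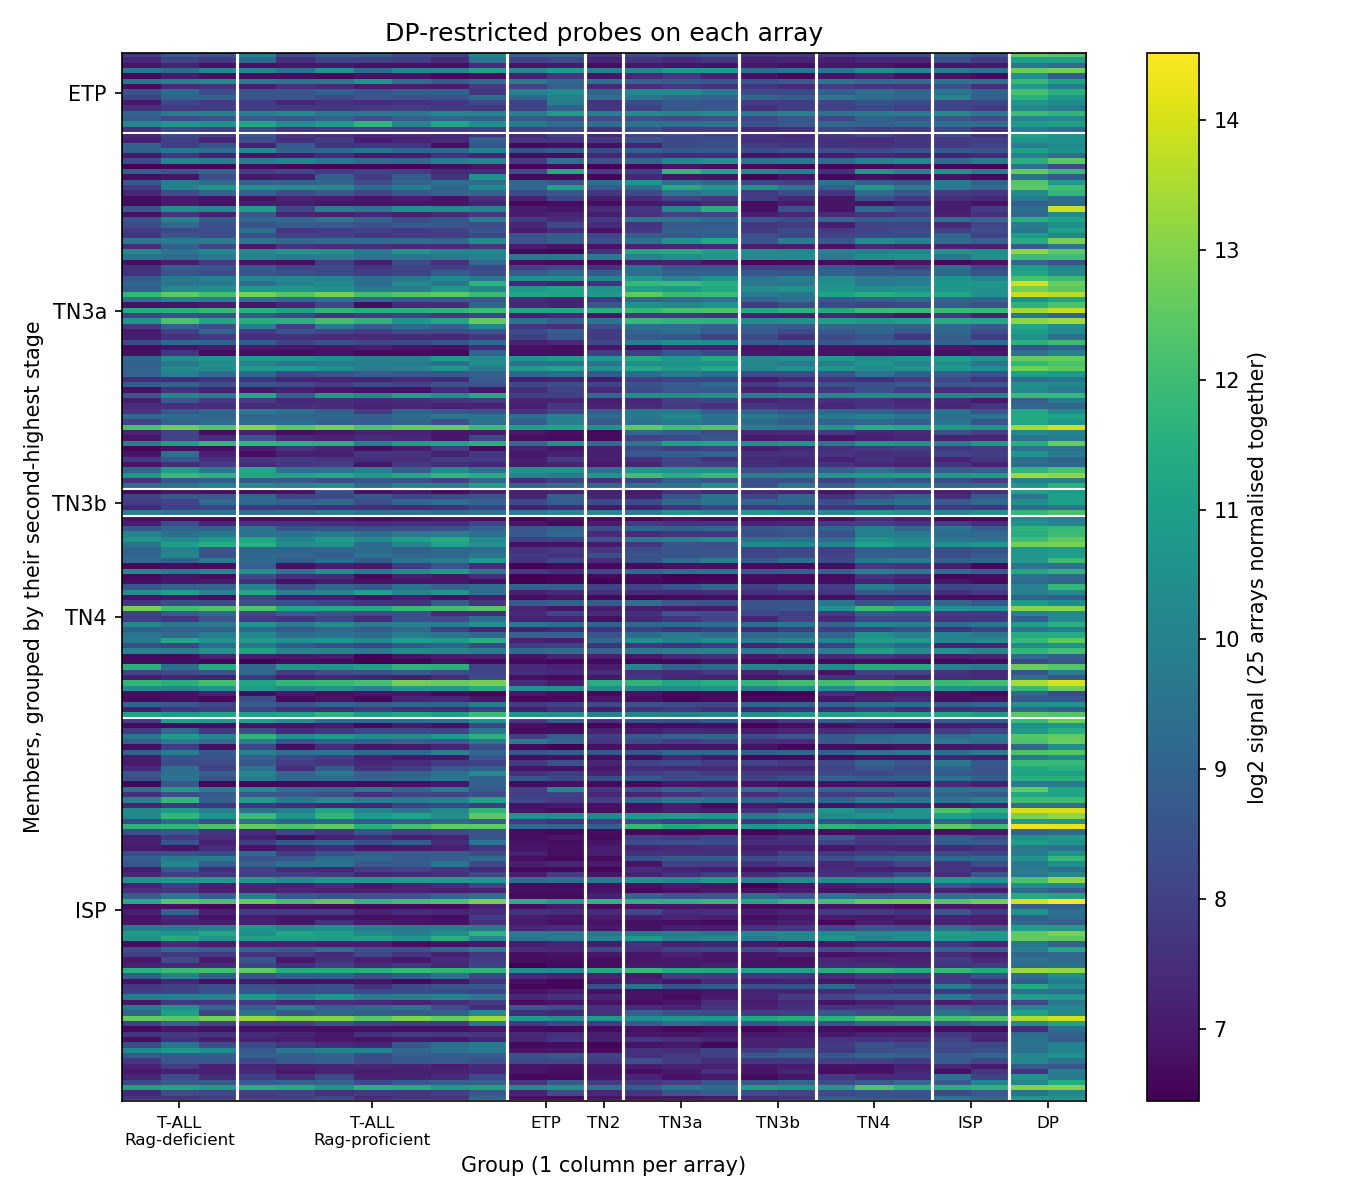
log2 signal of the 197 members that are in both intensity tables, 1 row per probe and 1 column per array, with 25 arrays normalised together; rows are grouped by the stage with the highest mean after DP. The DP columns at the right are the brightest of nearly all rows, and for 179 members all 10 T-ALL columns at the left lie below both.

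The label was checked against markers of DP cells. Cd4 and Cd8b1, the coreceptors that define the stage, Rag1, and Themis, a TCR signalling protein needed for positive selection, each had a member. Rag2, the partner of Rag1 in the recombinase, scored 1.06 and stood at rank 420. Dntt, the terminal transferase that adds bases at V(D)J joints, averaged 11.30 in DP and 11.73 in TN3a. Cd8a was dim: ILMN_2731282 was detected on both DP arrays, at a mean of 6.83, and on none of the other 13, while ILMN_2935080 was detected on no array, at 6.47 in DP. Trac, which encodes the TCR alpha constant region, is not named in the probe table. No marker gene of mature T cells, B cells, myeloid cells, erythroid cells, NK cells, dendritic cells or thymic epithelium had a member. These lists held 4 to 13 probes each, so few that an absence of members does not check the label. Some marker genes were detected on both DP arrays. They were Cd79b, at a mean of 10.05 on its brighter probe, Itgb7 at 8.13, Siglech at 7.79, Klf2 at 7.28 and Hbb-b1 at up to 6.85. No gene on the myeloid, NK or thymic epithelium lists was detected on both. The 8 myeloid marker probes averaged 6.61 and 6.68 on the DP arrays and none was detected there.

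Of 9 recombination and end-joining genes on the array, Rag1 alone had a member. Rag1 read 13.65 and 12.37 on the DP arrays, 11.13 to 11.63 on the TN3a arrays, 9.30 on both TN3b arrays, 9.42 to 10.07 on the TN4 arrays, 10.40 and 10.41 on the ISP arrays, and 6.93 to 7.32 on the ETP and TN2 arrays. The signal was thus high in TN3a, when TCR beta rearranges, lower through TN3b, TN4 and ISP, and highest in DP.

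The list of DP transcription factors had members in 6 of 20 genes. It was the longest list, with 49 probes, of which 8 were members. The recombination, coreceptor, survival and positioning lists had 12 to 30 probes each, of which 1 to 3 were members. The lists were chosen with earlier results of these data known, so these counts are a description and do not rank the groups. Satb1, a chromatin organiser of T cell genes, read 11.54 and 11.49 in DP and between 7.06 and 9.30 on the other arrays. Bcl6, a transcriptional repressor, read 11.88 and 12.38 in DP, 8.39 to 9.51 in ETP, TN4 and ISP, and 7.19 to 8.00 in TN2, TN3a and TN3b. On these probes no other array came near the DP arrays. The probes of Satb1 disagree in size, since ILMN_1220726 averaged 14.34 in DP and 13.43 in ISP, a score of 0.91, and ILMN_2561103 scored 0.34. Bcl6 had a single probe.
Ets2, an ETS family factor, read 14.05 and 13.95 in DP, 11.64 and 12.15 in ISP, 10.30 to 11.48 in TN3a, TN3b and TN4, and 8.52 to 8.77 in ETP and TN2. Egr1, an immediate early factor downstream of TCR signalling, read 12.34 and 12.02 in DP and 10.00 to 11.11 in TN4. The 3 member probes of Nfatc3, a calcium-regulated factor, scored 2.31, 1.90 and 1.39, and its other probes scored 1.17 and 0.57. ISP was the highest stage after DP on all 3 member probes. Tcf12, which encodes the E protein HEB, entered through 1 of its 4 probes with a score of 1.38, and its other probes scored between -0.17 and 0.02.

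Among 15 coreceptor and TCR signalling genes, Cd4, Cd8b1 and Themis had a member. Cd8b1 read 13.71 and 13.70 in DP, 11.23 and 11.86 in ISP, 9.53 to 10.33 in TN4, 7.27 and 8.07 in TN3b, and 6.57 to 6.87 in the 3 earlier stages. Its levels increased at each step after TN3a. The probes of this gene disagree, since ILMN_2741169 scored 0.84 and ILMN_1257694 scored -2.15 with its highest level in ETP, at 12.39. Cd4 read 8.78 and 8.54 in DP and 6.47 to 6.96 on the other arrays, and its other probe stayed near background, at 6.64 in DP. Themis read 11.03 and 10.08 in DP, 8.41 and 9.41 in ISP, and 6.42 and 6.45 in ETP.

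Survival, positioning and selection genes added Fas, Plxnd1 and Slamf1. Fas, a death receptor, read 10.96 and 11.21 in DP on its brighter probe, 8.19 and 8.67 in ISP, and 6.66 to 7.21 from ETP to TN3b. Its member probes scored 2.66 and 1.67 and its other probes 0.98 and 0.11. None of the other genes among the 9 on the survival and apoptosis list had a member. Plxnd1, a semaphorin receptor that guides DP thymocytes towards the medulla, read 12.15 and 12.01 in DP and 7.42 to 8.76 on the other arrays. Its member probes scored 3.45 and 2.78, and a further probe, at 7.88 in DP, scored 1.10. Slamf1, a costimulatory receptor of the SLAM family, read 8.96 and 9.24 in DP, against 7.36 and 7.50 in ISP, and its other probes scored 1.07 and 0.73. Cxcr4, a chemokine receptor on the same list of 11 genes, scored 1.26 and stayed outside.

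Lists for other stages had no member. The 34 probes of 15 proliferation genes had a median score of -1.48, with none above 0. The 15 probes of 10 Notch and pre-TCR genes had a median score of -2.41, with none above 0, and Hes1, a Notch target, averaged 6.52 in DP and 10.55 in TN3a. The median score of all probes was -0.09.

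The highest scores belonged mostly to genes outside these lists. The highest, 3.63, was that of the unnamed probe ILMN_1228804, at 11.56 and 12.35 in DP and 7.15 to 8.45 elsewhere. Smoc1, a secreted matricellular protein, read 10.63 and 10.51 in DP and 6.69 to 7.29 elsewhere. Slc7a11 (ILMN_2948143), the cystine transporter, read 10.05 and 10.32 in DP and 6.41 to 6.89 elsewhere. Smoc1 was still detected on 12 of the 13 other arrays, and this probe of Slc7a11 on 3. The 5 probes of Slc7a11 had a median score of 1.21 and a lowest score of 0.14.
F13a1, the A subunit of coagulation factor XIII, read 10.47 and 11.23 in DP and reached 7.86 in ISP. Lipa, the lysosomal acid lipase, read 12.02 and 12.23 in DP and reached 9.35 in ISP, and its probes scored 3.01 and 2.44. Klf7, a zinc finger factor, scored 2.71, 2.44 and 2.15 on its 3 probes. Prr29 scored 2.71, and Oga, which removes O-GlcNAc from proteins, scored 2.67 on 1 of its 4 probes, the lowest of which scored -0.07. Arhgef1, an activator of RhoA, scored 2.42 on 1 of its 4 probes, the lowest of which scored 0.07. The unnamed probes ILMN_2761720, ILMN_2468139, ILMN_2717146 and ILMN_1252472 completed the 20 highest, with scores of 2.42 to 2.83. At the threshold, Kmt2c scored 1.37 and ILMN_2760272 and Dgkd 1.36 just inside, while Tecpr1 scored 1.36 and ILMN_1257107 and Gm5578 1.35 just outside.

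The members differed in what they did before DP. ISP was the highest other stage for 74 members, TN3a for 67, TN4 for 39, ETP for 15, TN3b for 5 and TN2 for none. In 105 members the other 6 stage means lay within 1 log2 unit of each other, and in 26 they spanned at least 2. The mean order TN3b, TN4, ISP, DP was shown by 99 members, among them Cd8b1 and Fas, and by 7.17% of all probes. The rule fixed the last step, from ISP to DP, for every member, so the share over all probes is no like-for-like measure. A TN3a mean more than 1 above the TN3b mean was shown by 20 members, and by 1.20% of all probes, and the reverse by 4 members and 0.831% of all probes. Neither comparison of TN3a with TN3b uses the DP arrays, but the rule also used the TN3a and TN3b means. Every member was detected on both DP arrays, against 31.26% of all probes, so these shares are not of like probes.
The members with the largest TN3a to TN3b gap, picked after the values were seen, were led by Btg1, an antiproliferative gene. It averaged 13.39 in DP on ILMN_2866185, 11.97 in TN3a, 9.45 in TN3b, 10.87 in TN4 and 10.37 in ISP, and its other probe followed the same course. Txnip, an inhibitor of thioredoxin and of glucose uptake, averaged 11.64 in DP, 10.26 in TN3a and 8.06 in TN3b. Trp53inp1, a p53 target that promotes cell cycle arrest, averaged 12.90 in DP, 11.53 in TN3a and 9.62 in TN3b. Rag1, Wdr78 and Spo11 also had a TN3a mean more than 2 above the TN3b mean.

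The DP values rest on 2 arrays. The arrays differed by a median of 0.43 over the members and by over 1 in 27 of them. Spo11, the meiotic recombination enzyme, differed most, at 9.00 and 13.60, and its TN3a arrays ranged from 7.45 to 11.20. DP replicate 1 was alone on its slide. DP replicate 2 shared a slide with 4 arrays of other stages and lay above all 4 for all 200 members, by a median of 1.70, and for 24.9% of all probes. The rule used these arrays, so that count was largely fixed in advance. When the 200 probes were chosen without DP replicate 1, 124 of them were members, and 167 of that list exceeded their highest other stage on the array left out, by a median of 1.17, against 26.5% of all probes. When they were chosen without DP replicate 2, 140 were members, and 198 exceeded their highest other stage on the array left out, by a median of 1.34, against 23.0% of all probes. The values of the other stages still chose both lists, so only the DP array left out was unused.

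TN2 replicate 2 was not used by the rule. It was a dim array, with 21.37% of all probes detected, against 34.74% to 41.76% on the other thymocyte arrays. All 200 members lay below the DP mean there, with a median level of 7.16, against 10.16 in DP and 7.20 on TN2 replicate 1 when the 16 arrays were normalised together. On this array 97 members were detected, against 162 on TN2 replicate 1, and 19 exceeded the highest mean of the other stages.

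T-ALL was compared with the thymocytes over the 46089 probes of both intensity tables, with 25 arrays quantile-normalised together. The tables held 197 members, and ILMN_1232894, ILMN_3001914 and ILMN_2612774 were not in the T-ALL table. DP values chose the members and no slide held both T-ALL and thymocytes, so that slide and table cannot be told apart from tissue, and no test is given. Members were lower in T-ALL than in DP almost throughout. All 10 tumours lay below both DP arrays for 179 of the 197 members, and for 12.0% of all probes. Among the 7090 probes with a DP mean at or above the lowest of the members, that share was 29.7%. No member had all tumours above both DP arrays, and in 18 the tumours overlapped the DP arrays. The median difference, T-ALL minus DP, was -1.99 over the members and -0.01 over all probes. With the arrays only scaled to a common median, 107 members lay below and the median difference was -1.35. In bulk RNA, fewer cells of a type and less RNA per cell cannot be told apart.

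Most of these probes were detected in the tumours. Of the 197 members, 159 were detected in all 10 tumours, 37 in some and 1, Esrp2, in none, against 31.6% of all probes detected in all 10. The members were bright probes by choice, since every member was detected on both DP arrays, against 31.26% of all probes. The 2 shares are therefore not of like probes. The T-ALL mean lay between the highest other stage and DP for 65 members, above DP for 2, and at or below the highest other stage for 130. It exceeded the highest other stage in 67 members, against 15.8% of all probes. With median scaling it did so in 103 members, against 22.06% of all probes. The nearest stage mean to the T-ALL mean was ISP for 28.9% of members and TN4 for 25.4%, against 14.5% and 15.8% of all probes. It was DP for 3.0% of members, against 14.3% of all probes. The rule set the DP mean apart from all other stages in every member, so these shares follow in part from the choice of members.

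**Figure D2:**
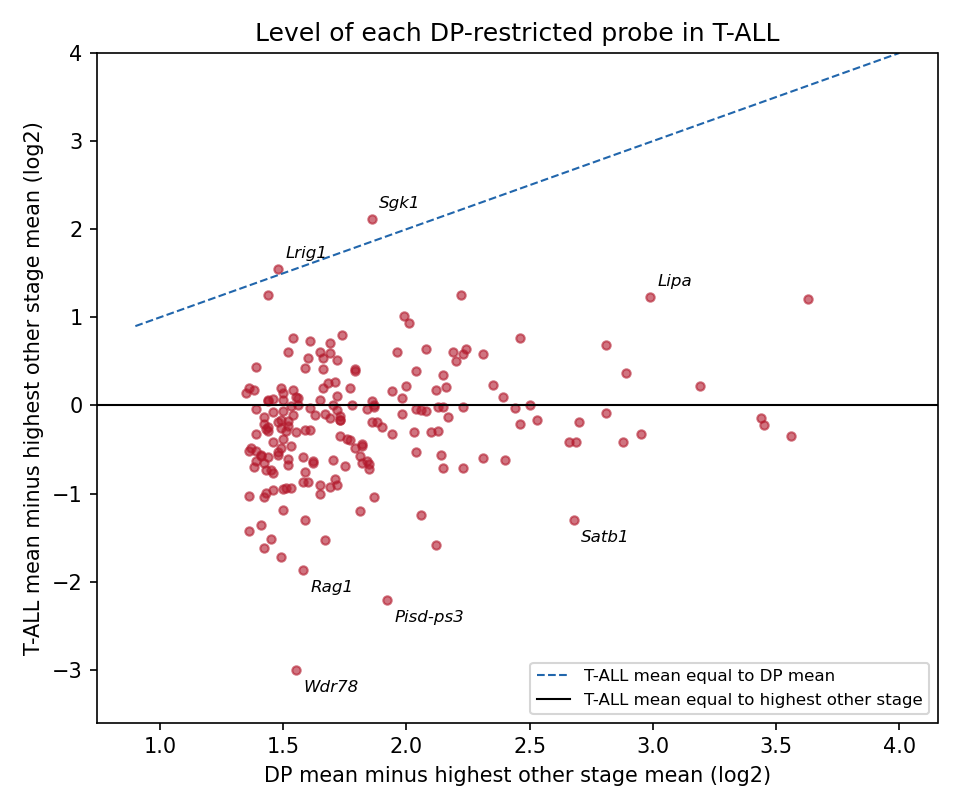
Each point is 1 of the 197 members, with its DP mean minus its highest other stage mean on the x axis and its T-ALL mean (10 tumours) minus that same stage mean on the y axis, both in log2 units. Points under the solid line, 130 members, have T-ALL at or below the highest stage before DP, and 2 members, Sgk1 and Lrig1, lie above the dashed line where T-ALL equals DP.

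The marker lists of erythroid and myeloid cells were brighter in the tumours than in DP. The 13 erythroid probes (Hba-a1, Hbb-b1 and Alas2) averaged 13.35 to 13.50 in Rag-deficient T-ALL and 13.43 to 13.71 in Rag-proficient T-ALL, against 6.79 and 6.84 on the DP arrays and 6.71 to 10.50 on the arrays of the other stages. All 3 genes were detected on every tumour array. The 8 myeloid probes averaged 7.42 to 7.93 in Rag-deficient and 7.84 to 8.23 in Rag-proficient T-ALL, against 6.61 and 6.68 in DP. Lyz2 and Csf1r were detected in tumours and in no DP array, while Itgam was detected in neither. The 9 dendritic probes averaged 7.30 to 7.95 over the tumours, against 6.79 and 6.91 in DP, with Cd74 detected in all tumours and no DP array. Siglech was brighter in DP, at 8.09 on its brightest probe, and near background in the tumours. The 4 B cell probes averaged 6.86 to 7.27 over the tumours, against 8.03 and 8.26 in DP, a difference made by Cd79b, at 7.75 in Rag-deficient and 7.40 in Rag-proficient T-ALL, against 10.39 in DP, on its brighter probe. Ms4a1 was detected in 9 tumours and 1 DP array, and Pax5 in 4 tumours and no DP array. The 4 NK probes averaged 6.87 to 7.47 over the tumours, against 6.66 and 6.69 in DP. Nkg7 was detected in all 10 tumours and no DP array, at 7.29 in Rag-deficient and 8.13 in Rag-proficient T-ALL, against 6.59 in DP. Klrd1 was detected in 5 tumours and no DP array, Klrb1c in 8 tumours and 1 DP array, and Ncr1 in neither. The 8 thymic epithelium probes averaged 6.72 to 6.81 over the tumours, against 6.66 and 6.67 in DP. Foxn1 and Epcam were detected in neither. Krt8 (ILMN_1221157) was detected in all 10 tumours, at 7.23 in Rag-deficient and 7.18 in Rag-proficient T-ALL, against 6.78 in DP. Psmb11 was detected in 9 tumours and Ly75 (ILMN_1258336) in 5, and these 3 probes were detected in no DP array. The 4 mature T cell probes averaged 7.43 to 8.31 over the tumours, against 7.32 and 7.55 in DP. The part of these cells in the lower member signals was not tested.

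Member probes of DP genes lay well below DP in both kinds of tumour, though other probes of Satb1 and Cd8b1 showed smaller or opposite differences. Satb1 read 7.02, 8.34 and 8.32 in Rag-deficient T-ALL, 7.34 to 8.62 with a median of 7.86 in Rag-proficient T-ALL, and 11.87 and 11.82 in DP. On this probe, ILMN_1240428, no tumour came within 3 log2 units of DP, and the T-ALL mean was 1.30 below the ISP mean. The gap was smaller on the brighter Satb1 probe ILMN_1220726, which is no member and averaged 13.28 in Rag-deficient T-ALL, 13.39 in Rag-proficient T-ALL and 14.59 in DP. Cd8b1 read 10.24, 10.87 and 9.90 in Rag-deficient T-ALL, 9.46 to 11.73 with a median of 9.95 in Rag-proficient T-ALL, and 14.01 and 13.99 in DP. The tumours ranged from below the lowest TN4 array, at 9.88, to the level of the lower ISP array, at 11.56. These values are of ILMN_2664929, and the other probes of Cd8b1 differ. ILMN_2741169 averaged 13.09 in Rag-deficient T-ALL, 13.19 in Rag-proficient T-ALL and 14.83 in DP. ILMN_1257694 was higher in T-ALL, at 11.02 in Rag-deficient and 11.18 in Rag-proficient T-ALL, against 10.58 in DP.
Rag1 read 9.08, 9.51 and 9.80 in Rag-deficient T-ALL, 9.25 to 11.67 with a median of 10.03 in Rag-proficient T-ALL, and 13.95 and 12.70 in DP. It was detected in all 10 tumours, including the 3 labelled Rag-deficient, and a probe signal does not show whether the transcript is intact, so these values do not check the label. Rag2, which is no member, read 6.69 to 7.50 in Rag-deficient T-ALL, 6.69 to 7.89 in Rag-proficient T-ALL, and 8.71 and 8.97 in DP. The tumour ranges of both recombinase genes overlapped between the kinds of T-ALL.

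Bcl6 read 8.93, 9.81 and 9.29 in Rag-deficient T-ALL, 8.49 to 9.95 with a median of 8.92 in Rag-proficient T-ALL, and 12.22 and 12.72 in DP. Plxnd1 (ILMN_1214608) read 7.82, 8.70 and 8.51 in Rag-deficient T-ALL, 8.09 to 10.14 with a median of 8.81 in Rag-proficient T-ALL, and 12.50 and 12.35 in DP. On these probes every tumour was more than 2 log2 units below both DP arrays. On the other member probe of Plxnd1, ILMN_2550095, the tumours came closer, with Rag-proficient replicate 7 at 9.51 and replicate 1 at 9.06, against 10.93 and 11.05 in DP. Egr1 varied more, at 11.61, 9.37 and 11.40 in Rag-deficient T-ALL, 8.03 to 11.57 with a median of 10.68 in Rag-proficient T-ALL, and 12.68 and 12.36 in DP. On this scale Egr1 and a probe of Spats2l, a member outside the lists, were the 2 members with an SD above 1 over the Rag-proficient tumours. That held for 0.53% of all probes. With the background correction of the Rag comparison below, further members had an SD above 1, such as Smoc1, at 1.48, and Fas (ILMN_2902979), at 1.03.
Ets2 averaged 11.91 ± 0.32 in Rag-deficient (SD, n = 3) and 12.31 ± 0.38 in Rag-proficient T-ALL (SD, n = 7), and 14.27 in DP. Fas averaged 8.24 ± 0.99 in Rag-deficient T-ALL, with 8.40 ± 0.73 in Rag-proficient T-ALL and 11.43 in DP. Themis averaged 8.03 ± 0.33 in Rag-deficient T-ALL, with 8.33 ± 0.36 in Rag-proficient T-ALL and 10.90 in DP. Slc7a11 (ILMN_2948143) averaged 6.69 ± 0.05 in Rag-deficient and 7.07 ± 0.48 in Rag-proficient T-ALL and was detected in 5 of 10 tumours, and Smoc1 averaged 6.77 ± 0.12 and 7.10 ± 0.62 in those groups and was detected in 4.

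**Figure D3:**
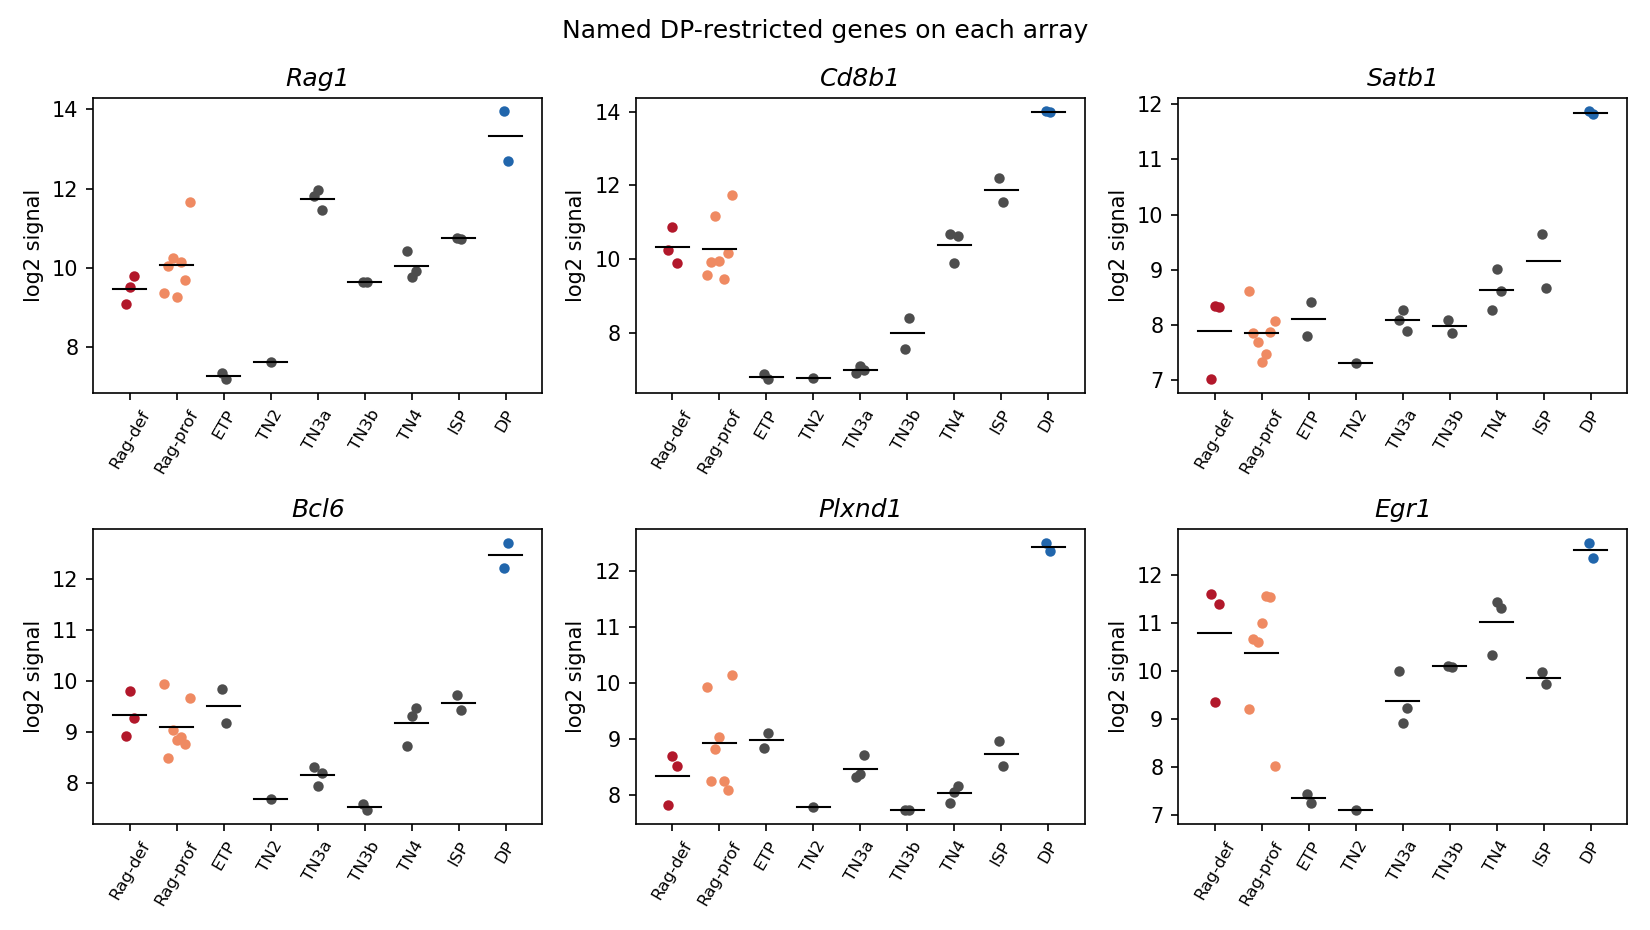
log2 signal of 1 member probe of each of 6 genes on each array (points, 25 arrays normalised together) with the group mean as a line; T-ALL groups are at the left, followed by the stages in order of development, and each panel has its own y axis, which does not start at 0. The DP arrays are the highest in each panel, at 13.95 and 12.70 for Rag1, and no tumour reaches the DP arrays in any panel.

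Some members were higher in T-ALL than in every stage before DP. All 10 tumours exceeded all 13 arrays of the other stages for 10 members, against 1.52% of all probes, and no member had all tumours below those arrays, against 0.768% of all probes. The rule used those 13 arrays, and every member was detected on both DP arrays, against 31.26% of all probes. These shares are therefore not of like probes and follow in part from the choice of members. The 10 probes, named after their values were seen, were those of Lipa, Lsmem1, Hs6st1, Fn3k, Sgk1, Adgre5 (2 probes), Sla, Lrig1 and H1f2. Sgk1, a kinase of the PI3K pathway, read 10.43, 11.03 and 9.97 in Rag-deficient T-ALL, 9.36 to 11.35 in Rag-proficient T-ALL, and 10.07 and 10.23 in DP, with the highest other stage at 8.29. Lrig1, a negative regulator of receptor tyrosine kinases, read 10.17, 10.84 and 10.38 in Rag-deficient T-ALL, 8.73 to 10.09 in Rag-proficient T-ALL, and 9.43 and 10.09 in DP, with the highest other stage at 8.28. These were the 2 members whose T-ALL mean exceeded the DP mean, by 0.26 and 0.06.
Lipa read 9.72, 10.88 and 10.12 in Rag-deficient T-ALL, 10.23 to 11.75 in Rag-proficient T-ALL, and 12.36 and 12.57 in DP. H1f2, a linker histone, averaged 10.77 in T-ALL and 10.95 in DP. Sla, an adaptor that lowers TCR levels on DP cells, averaged 12.83 in T-ALL and 13.74 in DP on its member probe, with scores of 0.72 and 0.45 on its other probes, and Adgre5, which encodes the leukocyte receptor CD97, averaged 9.96 in T-ALL and 10.91 in DP on ILMN_2694170. Btg1, also among the probes with high T-ALL signal, averaged 12.49 in T-ALL and 13.69 in DP on ILMN_2866185. The members with the lowest T-ALL signal were Esrp2, at 6.60 in T-ALL and 8.36 in DP, Slc7a11 on ILMN_2574165, at 6.63 in T-ALL and 8.92 in DP, and the unnamed probes ILMN_1231135, ILMN_2565089 and ILMN_2761720.

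At the other end, the largest shortfall against DP was that of Wdr78, a gene of ciliary dynein, at 7.39 in T-ALL and 11.94 in DP. Its T-ALL mean was 3.00 below TN3a, its highest other stage. Pisd-ps3 followed, at 8.14 in T-ALL and 12.28 in DP, and it is annotated as a pseudogene of Pisd, so the transcript that its probe reads is uncertain. Set against their own highest other stage, members had a median T-ALL difference of -0.56 where that stage was ETP (15 members), -0.52 where it was TN3a (67), -0.28 where it was TN3b (5), -0.04 where it was TN4 (38) and -0.03 where it was ISP (72). The groups were set by the stage values and are described without a test.

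The median signal of the 197 members on each tumour array was 8.05, 8.71 and 8.52 in Rag-deficient T-ALL and 8.31 to 8.84 with a median of 8.49 in Rag-proficient T-ALL, against 10.59 and 10.62 on the DP arrays. The range over the ISP arrays was 8.46 to 8.71, over the TN4 arrays 8.08 to 8.46 and over the TN3a arrays 8.07 to 8.35. These tumour medians averaged 8.43 ± 0.34 over Rag-deficient T-ALL (SD, n = 3), with 8.54 ± 0.19 over Rag-proficient T-ALL (SD, n = 7), so the tumour kinds overlapped. Rag-proficient replicate 7 was the highest tumour for 60 members and 11.5% of all probes, Rag-proficient replicate 1 for 47 members and 10.8%, and Rag-deficient replicate 2 for 39 members and 13.4%. Rag-deficient replicate 1 was the lowest for 75 members and 10.0% of all probes. Over the Rag-proficient tumours the median SD of a member was 0.39, against 0.26 for probes as bright in DP and 0.09 for all probes.

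**Figure D4:**
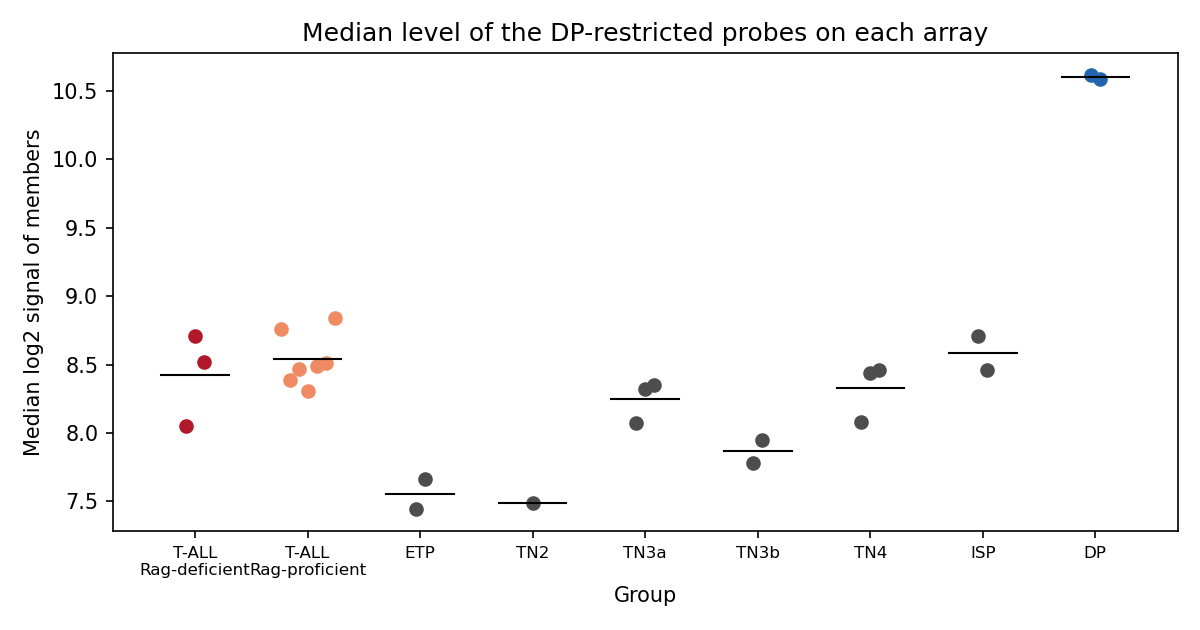
Median log2 signal of the 197 members on each array (points; the line is the group mean of these medians), with 25 arrays normalised together and a y axis that does not start at 0. The DP arrays stand at 10.59 and 10.62, and all 10 tumours lie between 8.05 and 8.84. The ISP arrays, at 8.46 and 8.71, the TN4 arrays, at 8.08 to 8.46, and the TN3a arrays, at 8.07 to 8.35, lie within that range.

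The tumours were not used to choose the members, and the difference between Rag-deficient and Rag-proficient T-ALL was tested with limma on all probes detected in at least 3 of the 10 arrays, after background correction and quantile normalisation of these arrays. Of 22951 probes, 95 passed an adjusted p under 0.05 (Benjamini-Hochberg), 16 higher and 79 lower in Rag-deficient T-ALL, which is 0.414% of the probes (0.0697% higher and 0.344% lower). None of the 193 members tested passed, and 13 had an unadjusted p under 0.05, against 9.81% of all probes. The 4 members not tested were ILMN_2565089, ILMN_1231135, a probe of Slc7a11 and Esrp2. The median difference over the members, Rag-deficient minus Rag-proficient, was -0.125, with 74 higher and 119 lower, against 0.037 over all probes. Without Rag-deficient replicate 1 the median was 0.132 and 123 members were higher, so the direction rested on that tumour. 

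No gene of the pathway lists passed the test among the members. Rag1 differed by -0.64 (SE 0.46, limma adjusted p = 0.689), Satb1 by -0.09 (SE 0.57, limma adjusted p = 0.975), Bcl6 by 0.30 (SE 0.37, limma adjusted p = 0.831) and Cd8b1 by 0.07 (SE 0.48, limma adjusted p = 0.978). Slamf1 had the smallest p of this group, with 6.72 ± 0.24 in Rag-deficient T-ALL (SD, n = 3), 7.42 ± 0.57 in the 7 Rag-proficient T-ALL and a limma adjusted p = 0.514. The standard errors of the members on these lists ran from 0.26 for Ets2 to 0.83 for Egr1, so a difference of 1 log2 unit would not have stood out for several of them.
The groups did not overlap for 3 members, against 3.84% of all probes tested, and these are named after their values were seen. Pisd-ps3 had the smallest p of all members, with 9.13, 8.79 and 9.48 in Rag-deficient T-ALL and 6.85 to 8.25 with a median of 7.80 in Rag-proficient T-ALL, a difference of 1.51 (SE 0.32, limma adjusted p = 0.0947). Lrig1 averaged 10.90 ± 0.36 in Rag-deficient (SD, n = 3) and 9.90 ± 0.56 in Rag-proficient T-ALL (SD, n = 7; limma adjusted p = 0.347). The unnamed probe ILMN_2536349 was detected on none of the Rag-deficient arrays and on all 7 Rag-proficient arrays, at 5.02 to 9.11, and was at least 5.26-fold lower in Rag-deficient T-ALL (limma adjusted p = 0.263). That bound sets the mean of the 7 Rag-proficient arrays against the lowest signal that counted as detected on each Rag-deficient array.

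**Figure D5:**
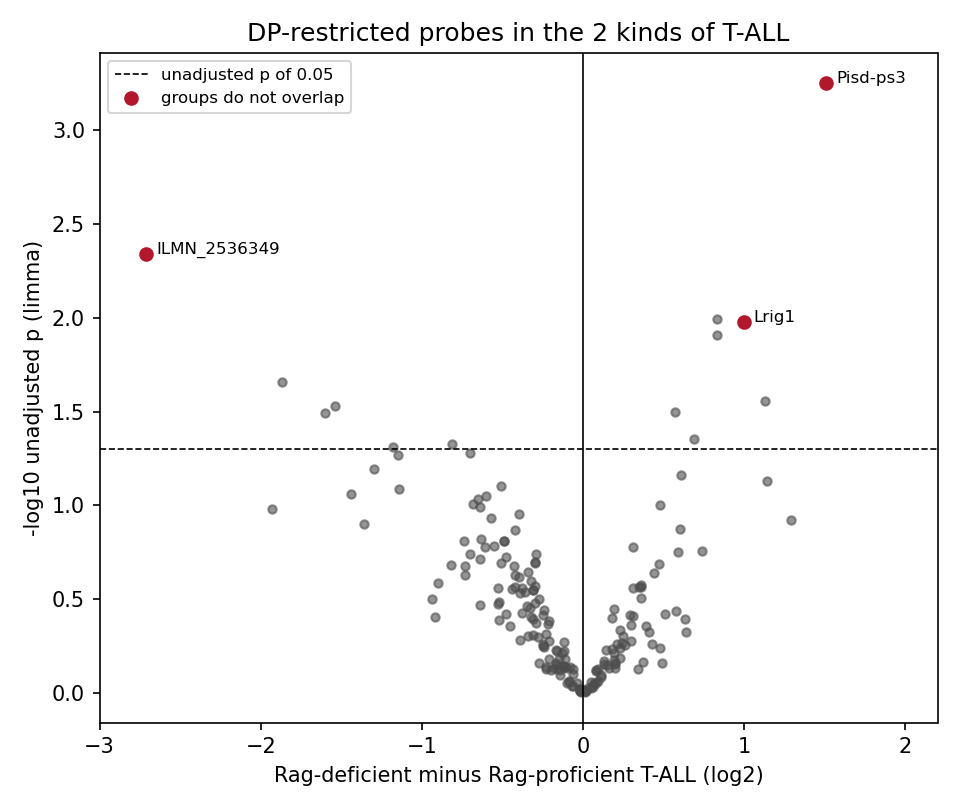
Rag-deficient minus Rag-proficient T-ALL difference in log2 units (x axis) and -log10 of the unadjusted limma p (y axis) for the 193 members tested; red points are the 3 members whose groups do not overlap and the dashed line is an unadjusted p of 0.05. The 13 points above the dashed line lie on both sides of 0, and none passed adjustment over all 22951 probes.

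The arrays of the 3 Rag-deficient tumours shared a slide with Rag-proficient replicate 7 and with no other tumour. With slide as a block the comparison rests on that tumour, and 1 member passed, Slc7a11 on ILMN_2948143, lower in Rag-deficient T-ALL (limma adjusted p = 0.0346 with the slide block, 0.541 without), against 0.196% of all probes. It was detected on none of the 3 Rag-deficient arrays and on 5 of 7 Rag-proficient arrays, so the size of that difference is not given. In that fit 45 members had an unadjusted p under 0.05, 38 of them lower, against 9.40% of all probes, and the median difference was -0.508, against 0.024 over all probes. Rag-proficient replicate 7 is the tumour that was highest for the most members, and the slide and this tumour cannot be told apart in that fit.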

How the data were processed

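Mouse thymocytes and T-ALL were measured on Illumina bead arrays from biotinylated cRNA, per the labels' protocols. The deposited tables hold non-normalised signal intensity and a detection p-value per probe, and a joint table of log2 values; no label or header describes a further step by the authors. The T-ALL table's deposited detection p-value behaved as 2-sided: nearly all of its dimmest probes had p under 0.01. It was made one-sided around each array's background level, taken from probes with p over 0.95. In the deposited joint log2 table the thymocyte columns match the intensities by row position (Spearman 0.9999) and not by probe ID (-0.003 to 0.0066), so intensities were used. The members, gene lists and tests were chosen with earlier results of these data known.

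Thymocyte signals were put on a log2 scale and quantile-normalised without background correction (15 arrays, 46237 probes; with T-ALL, 25 arrays and 46089 probes). For the T-ALL test, background was corrected with normexp (offset 16) and fitted with limma 3.58.1 in R 4.3.3; the fit was tested on simulated data. Other tables were made with Python 3.11.15. The number of arrays limits the precision. Depth as detected share was 42.58% to 46.35% of probes on T-ALL arrays and 34.74% to 41.76% on the thymocyte arrays used. Probes were named from the platform's probe table, with symbols updated through RefSeq: 109 members by gene ID, 17 by symbol, 10 by accession and 8 by synonym. Named were the 20 highest scores, members on the lists, up to 5 members per direction called in the Rag comparison (none were), 5 members each with the highest and lowest T-ALL signal, and 3 on each side of the threshold; other names were chosen after their values were seen. Alternatives covered background, normalisation, the score, list size, filter, slide, variance model and each array left out.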

Additional observations from a re-analysis of the deposited data

Results flagged for a closer look

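A tumour far from the other 6 Rag-proficient tumours (Dixon's test at 95%, log2 signal with 25 arrays normalised together) was found in 10 of 46 named members, where the nominal rate is about 1 in 20. Rag-proficient replicate 7 stood apart upwards in 6 of them: Rag1 at 11.67 with the next tumour at 10.24, F13a1 at 9.66 with the next at 8.34, Slc7a11 (ILMN_2948143) at 8.12 with the next at 7.07, and the unnamed probes ILMN_2717146 at 8.95, ILMN_1252472 at 8.07 and ILMN_1231135 at 7.15. Rag-proficient replicate 3 stood apart for Smoc1, at 8.46 with the next at 7.12. Rag-proficient replicate 1 stood apart for Oga, at 8.52 with the next at 7.69. Rag-proficient replicate 4 was the low one for Themis, at 7.59 with the next at 8.25, and for Nfatc3 (ILMN_2659540), at 8.25 with the next at 8.74. The nominal rate holds for independent, normal values, and the share flagged over all probes was not computed. Some of the 46 members were named by their tumour signal, so no excess over all probes can be read from these flags.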

How the results depend on the processing

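Membership depended most on the background correction and on the DP arrays. With normexp correction 125 of the 200 probes chosen were members, and with the mean of the other stages in place of the highest 137 were. A list of 100 probes was wholly within the members. Leaving out thymocyte arrays kept 124 to 199 members, with 124 when DP replicate 1 was left out. The number of members called in the Rag comparison was 0 under the alternatives tried, leave-one-out included (0 to 0), except 1 with slide as a block. Their median difference was -0.508 with the slide block and on slide 3 only, and -0.312 to 0.132 with a tumour left out. All probes called numbered 95, but 25 with no background correction, 23 in the joint log2 table, 52 without a filter, 45 with the slide block, and 31 to 142 with a tumour left out (31 without Rag-deficient replicate 2, 47 without replicate 1 and 142 without replicate 3). The count of members with all tumours below both DP arrays was 107 with median scaling and 179 to 190 with an array left out. The count with a T-ALL mean above the highest other stage was 103 with median scaling and 61 to 72 with an array left out. The median T-ALL minus DP difference was -2.45 with normexp, -1.35 with median scaling and -2.04 to -1.91 with an array left out. Of 644 recomputed T-ALL minus DP differences of named members, 641 kept their sign, which the choice of members by a high DP mean favours. In size, 73 moved by more than 1 SD of the Rag-proficient tumours, 34 of them with median scaling and 23 with normexp. The cause of these changes was not tested. No paired analysis was possible because the labels give no replicate numbers. Array number and background limit what can be seen for dim probes.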
